A study of Homo sapiens with 12 samples.

Results

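The genes described here encode proteins that hepatocytes secrete into plasma. They are carrier proteins, fibrinogen chains, clotting and contact factors, and proteins of anticoagulation and fibrinolysis with their inhibitors. The rest are complement proteins, protease inhibitors and a few other plasma proteins. The members were selected by gene symbol from a list of 59 names, and 48 of the 59 are among the 8842 genes listed in the deposited tables. The other 11, FGB, F9, F13B, PLG, KLKB1, C4BPB, MASP1, AHSG, ITIH4, GC and HRG, are not analysed here.

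The study asked what the long noncoding RNA FASRL does in hepatocellular carcinoma cells. The RNA-seq libraries come from HepG2 and LM3, established human liver cancer cell lines, in 4 groups of 3. HepG2 siFASRL and LM3 siFASRL cells received a small interfering RNA against FASRL, and HepG2 siNC and LM3 siNC cells received a negative control siRNA. RNA was harvested 48 h after transfection in all 12 libraries. Which FASRL siRNA was used in these libraries is not given in the sources used here, and FASRL itself is not analysed here, so its knockdown could not be checked in these values. The values are normalized RSEM expression values with 2 decimals, on a scale (FPKM or TPM) that is not given in the sources used here. The read depth behind a value is therefore unknown, and its precision is taken from the spread of the 3 libraries of a group. Comparing levels between genes takes the values as normalized for transcript length, as on both of those scales.

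Hepatocytes make most plasma proteins, moving them through the endoplasmic reticulum and the Golgi apparatus into the blood, and their genes are driven by liver transcription factors such as HNF4A, CEBPA and the FOXA proteins. During inflammation, IL6 signals through its receptor and JAK kinases to STAT3, and hepatocytes then make more of the positive acute phase proteins, such as haptoglobin and fibrinogen. They make less of the negative acute phase proteins, such as albumin and transferrin. Fold changes are given as log2 on the log2(value + 1) scale, which shrinks the fold changes of weakly expressed genes. A gene was called when limma gave an adjusted p under 0.05 with a log2 fold change of at least 1 in size. A gene said to have risen or fallen had an adjusted p under 0.05 at least.

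In the HepG2 siNC libraries, the 48 listed members summed to 6523, 6369 and 5917. These sums were 1.96%, 1.91% and 1.75% of the summed values of all listed genes. In LM3 siNC the sums were 165, 177 and 172, or 0.052%, 0.0552% and 0.0535%. HepG2 thus carried the plasma protein program, whereas LM3 carried little of it. After siFASRL the sums were 3209, 3062 and 3127 in HepG2 and 145, 148 and 145 in LM3. In both lines every siFASRL sum lay below every siNC sum.

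The labels were checked against 7 hepatocyte markers (ALB, TTR, APOA1, APOB, APOH, TF and SERPINA1). All 7 were above 0 in every HepG2 library, and they summed to 3596, 3517 and 3267 in siNC and to 1622, 1519 and 1562 in siFASRL. In LM3 they summed to 0.19, 3.16 and 2.48 in siNC and to 0.88, 0.05 and 0.05 in siFASRL, and SERPINA1 was the most abundant in each library. These markers were thus near 0 in LM3, with TTR listed at 0 in 5 of the 6 libraries.

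**Figure D1:**
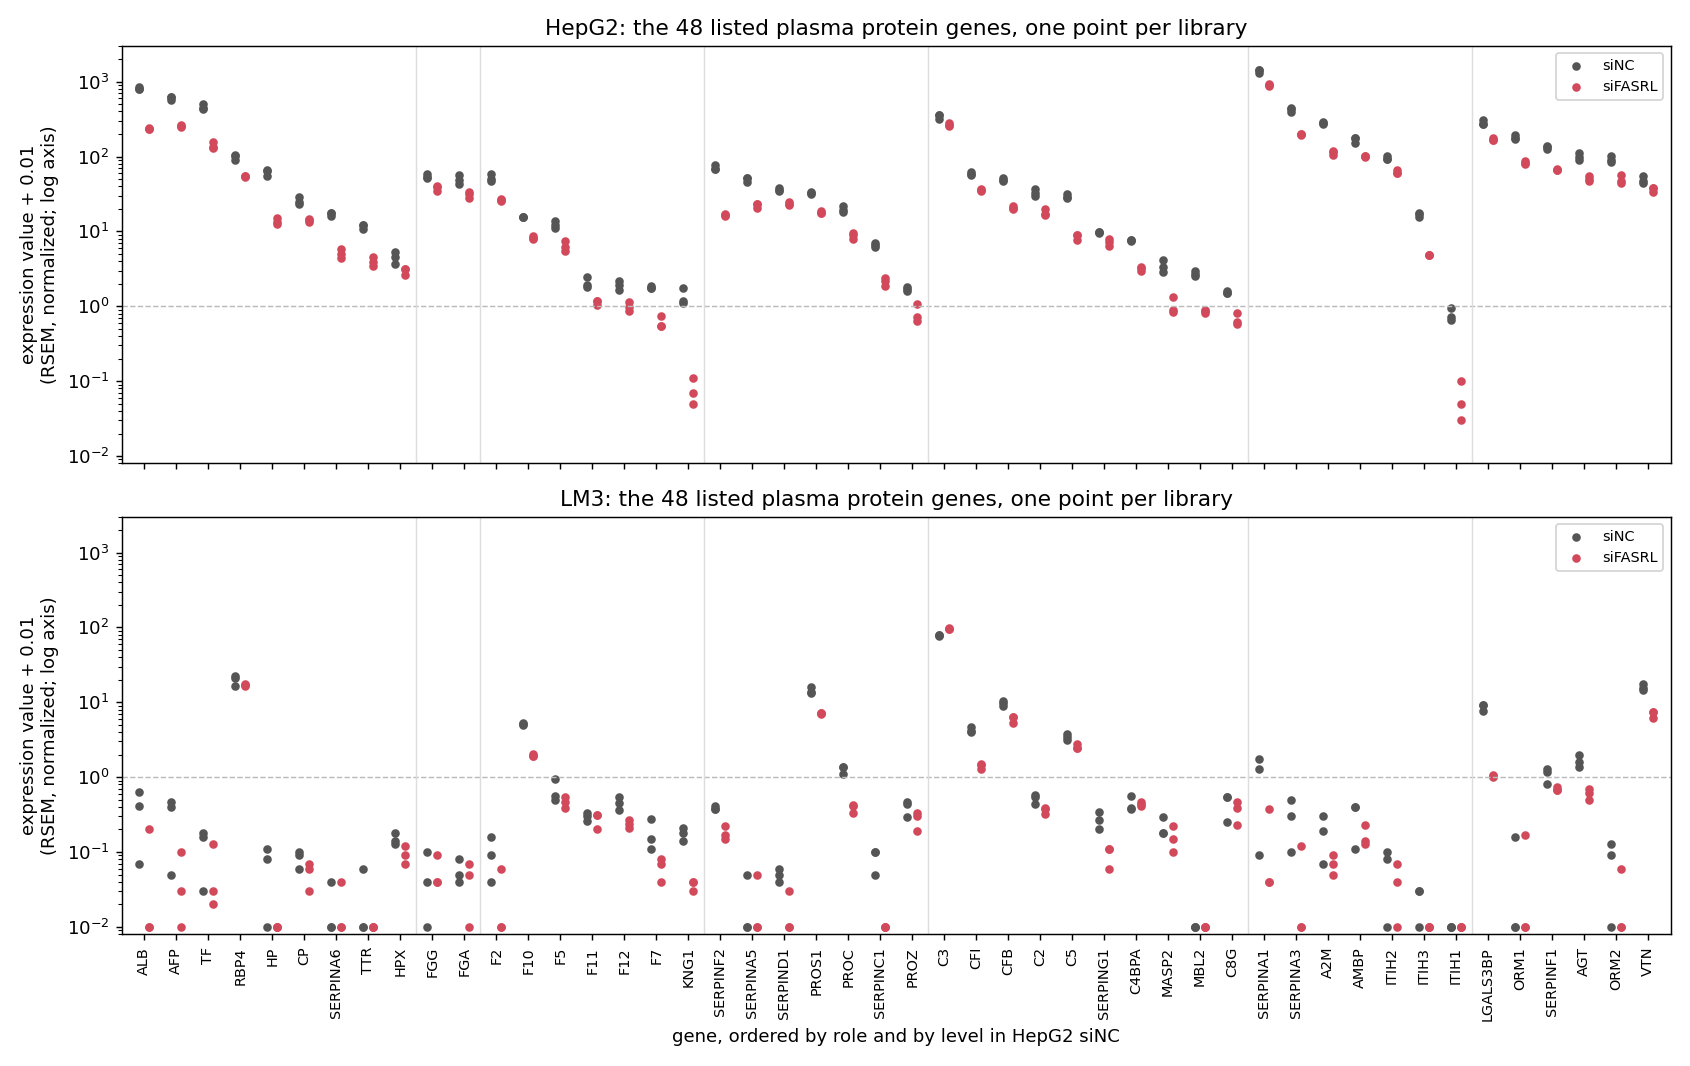
Expression value of each of the 48 listed plasma protein genes in each library of HepG2 (top) and LM3 (bottom), on a log axis after adding 0.01, with genes ordered by role and vertical lines between roles. The dashed line marks a value of 1. In HepG2 the siFASRL points lie below the siNC points for each gene, and in LM3 most genes lie under 1.

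The low LM3 values were not spread evenly over the libraries. Of the members, 9 had a mean of at least 100 in HepG2 siNC and a mean under 1 over the LM3 libraries. For 8 of them, all but SERPINF1, the values summed to 0.45, 4.11 and 3.23 in LM3 siNC and to 1.32, 0.26 and 0.22 in LM3 siFASRL. These sums were 0.0104%, 0.0949%, 0.0746%, 0.0305%, 0.00601% and 0.00508% of the sum of the same genes in HepG2 siNC (4329). LM3 siNC replicates 2 and 3 and LM3 siFASRL replicate 1 were thus the highest. SERPINA1, the most abundant, was at 1.73 and 1.26 in LM3 siNC replicates 2 and 3 against 0.08 in replicate 1. SERPINF1 followed another order, with 1.27, 0.80 and 1.15 in siNC and 0.66, 0.72 and 0.66 in siFASRL. The cause of these low values was not tested. The main LM3 results of the members are also given without these 3 libraries, a choice made after seeing the data, and those of the other gene lists are not.

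**Figure D2:**
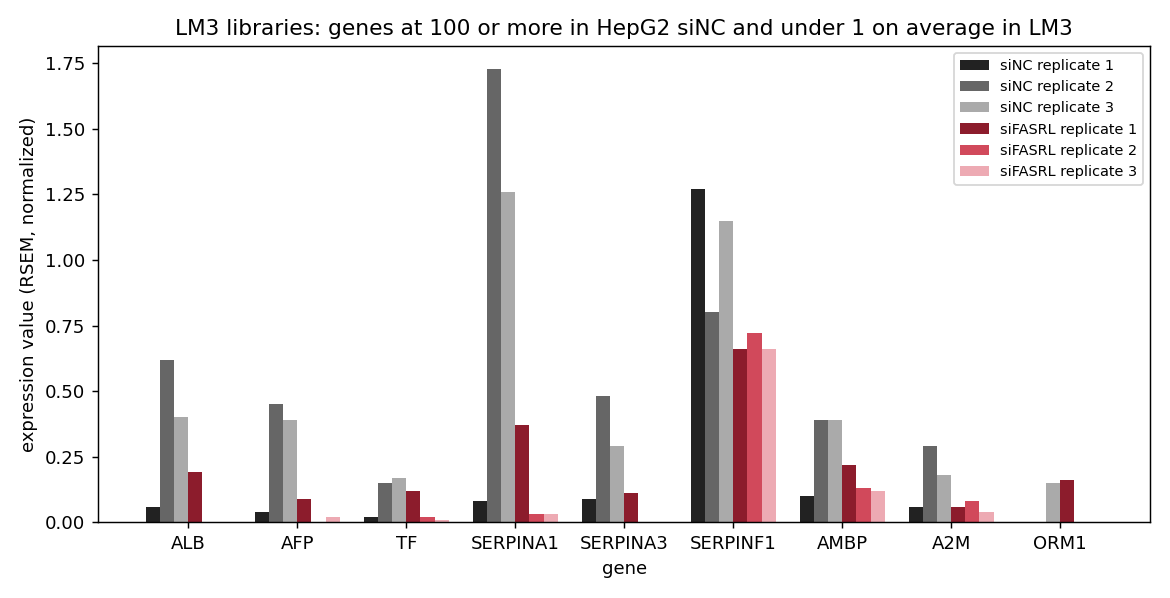
Expression value in each LM3 library of the 9 members with a mean of at least 100 in HepG2 siNC and a mean under 1 in LM3, with a bar per library from 0. ALB, AFP, SERPINA1 and SERPINA3 are highest in siNC replicates 2 and 3, and SERPINF1 is not.

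In HepG2, the plasma protein genes fell together after siFASRL. Of the 47 members that passed the filter on low values, 20 were called lower and 0 called higher by limma. Of all 8144 genes tested there, 6.79% were called lower and 3.61% called higher. By adjusted p alone all 47 fell, against 44.3% of all tested genes that fell and 44.8% that rose, and 0 members were higher at an unadjusted p under 0.05. The median log2 fold change of the 47 was -0.89, beside 0.10 for all tested genes. The siFASRL mean was between 5.01% and 76.7% of the siNC mean, with a median of 49.7%, beside 108% for all tested genes. For all 47 members, each siFASRL value lay below each siNC value, as for 44.2% of all tested genes. KNG1, F7, C8G and MBL2 passed the filter only through siNC, so they could only be lower. ITIH1 did not pass it, with 0.94, 0.70 and 0.64 in siNC and 0.04, 0.02 and 0.09 in siFASRL. Under quantile normalization 45 members fell, and HPX (-0.21, limma adjusted p = 0.091) and F11 (-0.18, limma adjusted p = 0.0665) did not pass. Less RNA per cell and fewer cells that make these RNAs cannot be told apart in such bulk libraries. The tables do not list all genes. Of the listed genes with a mean of at least 5, only 12 of 6367 (0.188%) had a HepG2 log2 fold change between -0.20 and -0.04, against 617 of 5937 (10.4%) in LM3. The counts of members and the shares of all tested genes therefore hold for listed genes, and may depend on how genes came to be listed, which was not tested.

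**Figure D3:**
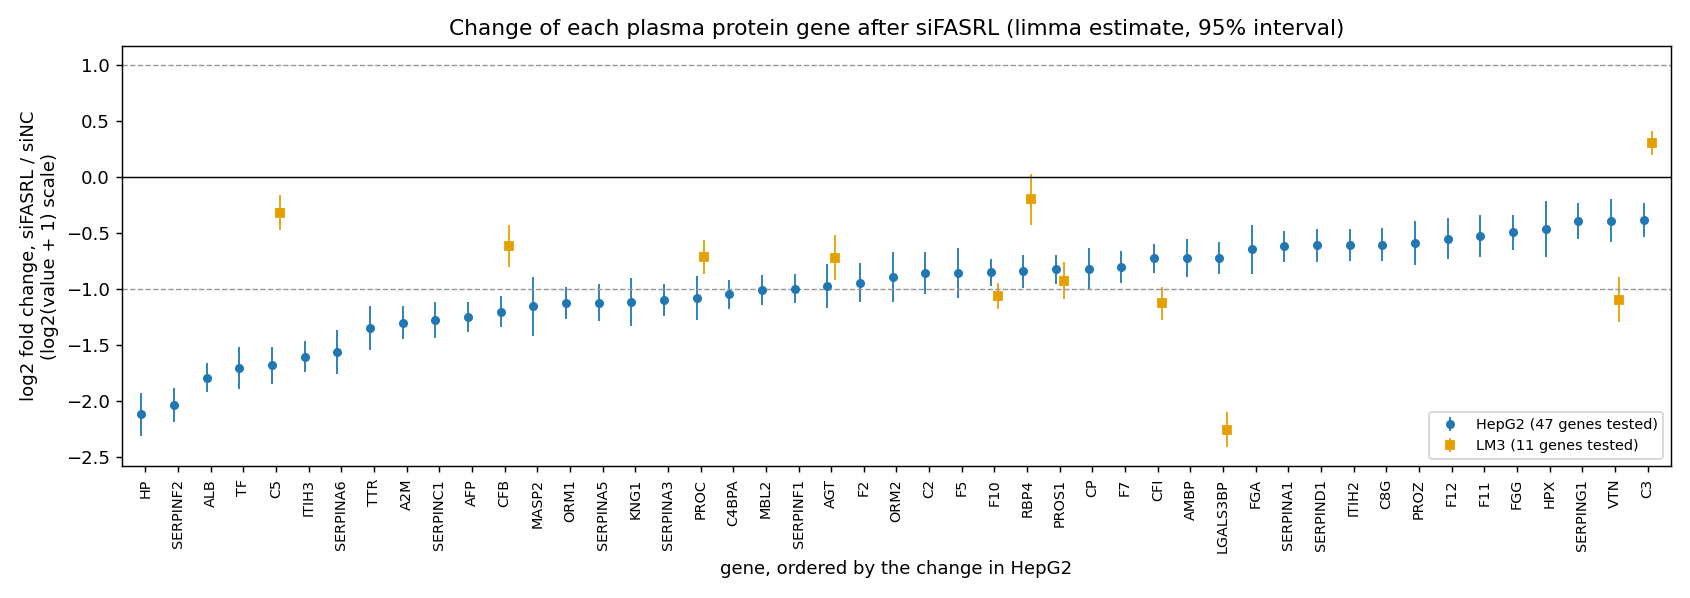
Log2 fold change of siFASRL against siNC with its 95% interval from limma, on the log2(value + 1) scale, for each member tested in HepG2 (circles, 47 genes) and LM3 (squares, 11 genes). Dashed lines mark -1 and 1. All HepG2 estimates are under 0, and in LM3 C3 is above 0 and LGALS3BP is lowest.

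Among the carriers, 9 of 10 were listed, all 9 fell in HepG2 and 6 were called lower. Beside these counts and those of each role below, 44.3% of all genes tested in HepG2 fell and 6.79% were called lower. Haptoglobin (HP), which binds free hemoglobin, was at 66.1, 64.6 and 55.6 in siNC and at 13.2, 12.5 and 14.9 in siFASRL. On the log2(value + 1) scale this was the largest fall among the members tested in HepG2, with a log2 fold change of -2.12 (SE 0.085, limma adjusted p = 5.5e-08). HP has a close relative, HPR, and whether reads were shared between them was not tested. Albumin (ALB), the main protein of plasma, was at 851, 805 and 790 in siNC and at 233, 231 and 241 in siFASRL. After siFASRL 28.8% of its siNC mean was left, and its log2 fold change was -1.79 (SE 0.056, limma adjusted p = 2.14e-08). Transferrin (TF), the iron carrier, was at 501, 448 and 437 in siNC and at 158, 132 and 134 in siFASRL. Its log2 fold change was -1.70 (SE 0.084, limma adjusted p = 1.59e-07). Alpha-fetoprotein (AFP), the fetal relative of albumin, was at 632, 616 and 567 in siNC and at 246, 253 and 262 in siFASRL. AFP thus fell less than its neighbor ALB, by 1.25 on the log2 scale (SE 0.061, limma adjusted p = 1.51e-07), though that difference was not tested. Transthyretin (TTR), a carrier of thyroxine, was at 12.01, 10.69 and 12.05 in siNC and at 4.57, 3.44 and 3.85 in siFASRL. SERPINA6, which carries cortisol, was at 16.1, 17.5 and 17.4 in siNC and at 4.40, 5.06 and 5.88 in siFASRL. Both were called lower, at -1.35 (TTR) and -1.56 (SERPINA6). RBP4 (retinol carrier), CP (ceruloplasmin, a copper protein) and HPX (hemopexin, which binds heme) fell without reaching the fold threshold, at -0.84, -0.82 and -0.46.

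ALB and AFP lie side by side on the plus strand of chromosome 4, at 73397114 to 73421412 and 73431138 to 73456174 in GENCODE v29 on GRCh38. Both fell in HepG2, as given above.

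Fibrinogen, the clot protein, is built from chains encoded by FGA, FGB and FGG, of which FGB is not analysed here. FGA was at 56.1, 42.8 and 48.5 in HepG2 siNC and at 33.1, 28.2 and 31.5 in siFASRL. FGG was at 57.6, 51.9 and 52.5 in siNC and at 35.2, 39.4 and 39.8 in siFASRL. Both fell, FGA by 0.65 (SE 0.098, limma adjusted p = 0.000164) and FGG by 0.49 (SE 0.069, limma adjusted p = 0.000101), and neither was called. They kept 63.0% and 70.6% of the siNC mean, more than the median member. Their genes lie on the minus strand of chromosome 4 at 154583126 to 154590766 and 154604134 to 154612967. Since both are positive acute phase genes, the letters searched for in their promoters were those of a STAT site and of an IL6 response element. The promoters are chr4:154590743-154590992 for FGA and chr4:154612657-154612906 for FGG (RefSeq, GRCh38.p14, minus strand, 250 bases before the start). Both RefSeq starts lie within the GENCODE spans just given, so the annotations differ in the start, and the FGG window lies wholly inside its span. The capitals mark TTCNNNGAA (STAT, 231 bases before the start) in FGA, and CTGGGAA (IL6 response element, 161 bases before it) in FGG.
FGA: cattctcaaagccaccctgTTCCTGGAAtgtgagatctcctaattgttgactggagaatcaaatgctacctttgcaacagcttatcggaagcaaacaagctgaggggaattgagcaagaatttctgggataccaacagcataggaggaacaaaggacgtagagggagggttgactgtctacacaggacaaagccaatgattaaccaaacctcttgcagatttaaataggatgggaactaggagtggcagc
FGG: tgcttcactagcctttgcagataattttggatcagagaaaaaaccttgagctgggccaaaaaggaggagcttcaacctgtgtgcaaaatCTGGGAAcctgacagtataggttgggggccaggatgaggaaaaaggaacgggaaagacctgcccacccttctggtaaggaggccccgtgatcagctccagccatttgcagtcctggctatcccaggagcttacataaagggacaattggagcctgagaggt
A RefSeq promoter was matched for 36 of the 48 listed members. Searched on both strands, TTCNNNGAA was found in 11 of the 36 members (30.6%), beside 8.09% of 27305 genes with a promoter of the same length, and CTGGGAA in 5 of 36 (13.9%), beside 11.1% of genes. The pair of motifs can share letters, as in MASP2, where both matches start 86 bases before the start of the gene. Thus FGA had the letters of the STAT site and FGG those of the IL6 response element. Both genes fell in HepG2 while IL6 rose (below). CAAAGTCCA, letters of an HNF4A site, was found only in PROZ (1 of 36, 2.78%, beside 0.403% of genes), and TTGCGCAA, letters of a C/EBP site, in 0 of 36, beside 0.146% of genes. A match of letters is a description and not a bound site.

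Of the clotting and contact factors, 7 of 10 were listed. All 7 fell in HepG2, beside 44.3% of all tested genes, and 1, KNG1, was called lower, beside 6.79%. KNG1 and F7 passed the filter only through siNC, so they could only be lower. Prothrombin (F2) was at 50.9, 58.1 and 46.7 in siNC and at 26.9, 25.7 and 26.6 in siFASRL, a fall of 0.94 (SE 0.079, limma adjusted p = 3.25e-06). It passed the fold threshold without siNC replicate 3, at -1.01, and under quantile normalization, at -1.05. F5, F7, F10, F11 and F12 had log2 fold changes between -0.85 and -0.53. They kept 51.8%, 33.7%, 52.6%, 54.2% and 51.6% of the siNC mean. F7 had a siNC mean of only 1.78, so the added 1 shrank its fold change. KNG1, the kininogen gene, was at 1.09, 1.17 and 1.73 in siNC and at 0.06, 0.04 and 0.10 in siFASRL. It had the smallest share left of the 47 members, 5.01%, and its low value limits what can be said of its size.

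Of the proteins of anticoagulation and fibrinolysis and their inhibitors, 7 of 9 were listed, all 7 fell in HepG2 and 4 were called lower. SERPINF2, the plasmin inhibitor, was at 68.3, 77.6 and 67.2 in siNC and at 16.5, 16.2 and 17.0 in siFASRL. Its log2 fold change was -2.04 (SE 0.067, limma adjusted p = 2.6e-08), next to that of HP in size. The other called genes were SERPINC1 (antithrombin, -1.28), SERPINA5 (protein C inhibitor, -1.12) and PROC (protein C, -1.08). PROS1 (protein S), SERPIND1 (heparin cofactor) and PROZ (protein Z) had log2 fold changes of -0.82, -0.61 and -0.59. Genes on both sides of the clotting balance thus fell in HepG2.

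Of the complement genes, 10 of 12 were listed, all 10 fell in HepG2 and 5 were called lower. MBL2, among the 5, and C8G passed the filter only through siNC, so they could only be lower. C5, from which the membrane attack complex starts, was at 32.0, 29.3 and 27.7 in siNC and at 9.06, 7.78 and 8.83 in siFASRL. Its log2 fold change was -1.68 (SE 0.075, limma adjusted p = 8.93e-08). The others called were CFB (factor B of the alternative pathway, -1.20), MASP2 (a lectin pathway protease, -1.15), C4BPA (a chain of the C4b-binding protein, -1.05) and MBL2 (mannose-binding lectin, -1.01). C3, the central component, was at 359, 363 and 320 in siNC and at 281, 258 and 261 in siFASRL. With a fall of 0.38 (SE 0.068, limma adjusted p = 0.000478), C3 had the highest share left of the 47 members, 76.7%. SERPING1, the C1 inhibitor, was close to it, at -0.39.

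Of the protease inhibitors, 7 of 9 were listed, all 6 tested fell in HepG2 and 3 were called lower. Alpha-1-antitrypsin (SERPINA1), the inhibitor of neutrophil elastase, was at 1435, 1432 and 1310 in siNC and at 938, 885 and 896 in siFASRL. It had the highest level of the members in both HepG2 groups and fell by 0.62 (SE 0.060, limma adjusted p = 8.63e-06). Its share of the members' summed values was 22.2% ± 0.26 (SD, n = 3) in siNC and 28.9% ± 0.3 (SD, n = 3) in siFASRL. The share of ALB was 13% ± 0.35 (SD, n = 3) and 7.5% ± 0.23 (SD, n = 3), so that the share of albumin shrank while that of antitrypsin grew. The share of C3 also grew, from 5.54% ± 0.15 (SD, n = 3) to 8.51% ± 0.21 (SD, n = 3), and that of TF shrank, from 7.36% ± 0.32 (SD, n = 3) to 4.51% ± 0.37 (SD, n = 3). SERPINA3 (antichymotrypsin) was at 451, 432 and 391 in siNC and at 199, 192 and 202 in siFASRL, with a log2 fold change of -1.10 (SE 0.065, limma adjusted p = 4.38e-07). A2M (alpha-2-macroglobulin), which traps proteases, was at 289, 278 and 270 in siNC and at 120, 105 and 113 in siFASRL. ITIH3, a heavy chain of the inter-alpha-trypsin inhibitors, was at 17.2, 17.7 and 15.5 in siNC and at 4.84, 4.90 and 4.82 in siFASRL. A2M and ITIH3 were called lower, at -1.30 and -1.61. AMBP, the source of bikunin, was at 178, 177 and 149 in siNC and at 103, 101 and 99.3 in siFASRL, and it was not called (-0.72).

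Of the 6 remaining members, all fell in HepG2 and 1 was called lower. ORM1, an orosomucoid, was at 193, 179 and 173 in siNC and at 87.9, 81.0 and 79.5 in siFASRL, with a log2 fold change of -1.12 (SE 0.065, limma adjusted p = 3.62e-07). ORM2 was at 103, 85.8 and 90.3 in siNC and at 57.1, 44.5 and 47.7 in siFASRL, with a log2 fold change of -0.89 (SE 0.1, limma adjusted p = 2.11e-05), and it passed the fold threshold under quantile normalization (-1.04). The transcripts of ORM1 and ORM2 agree at 729 of 760 aligned bases (95.9%), so reads may have been split between them and each value is uncertain. AGT (angiotensinogen), SERPINF1 (the anti-angiogenic factor PEDF), LGALS3BP (galectin-3-binding protein) and VTN (vitronectin) fell by 0.97, 0.998, 0.72 and 0.39.

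Some of the members are neighbors in the genome, and differences between neighbors were not tested. With gaps of at most 500 kb, 20 of the 48 listed members lie in 8 clusters. On chromosome 14, SERPINA6 (-1.56), SERPINA1 (-0.62), SERPINA5 (-1.12) and SERPINA3 (-1.10) lie between 94304248 and 94624055. On chromosome 17, SERPINF2 (-2.04) and SERPINF1 (-0.998) lie between 1742836 and 1777574. On chromosome 13, F7 (-0.80), F10 (-0.85) and PROZ (-0.59) lie between 113105788 and 113172383. They kept 33.7%, 52.6% and 47.2% of the siNC mean, and the added 1 shrinks the fold changes of F7 and PROZ most. Exons of 9 members (A2M, C2, CP, F10, F11, F12, KNG1, MASP2 and PROZ) overlap exons on the other strand in GENCODE v29. Whether reads were counted by strand is not given in the sources used here, so for these the partner's reads cannot be told apart. The ends of C2 and CFB overlap on the same strand of chromosome 6.

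At baseline, HepG2 siNC exceeded LM3 siNC for each member tested. Of the 47 members tested, 44 were called higher in HepG2 and 0 lower by limma, beside 15.6% of all 8176 tested genes called higher in HepG2 and 7.74% called lower. At an unadjusted p under 0.05, 0 members were lower in HepG2. Of the 47, 34 passed the filter only through HepG2 and could only be higher there. PROZ, KNG1 and C8G passed the adjusted p without the fold. The median member was at 42.4 in HepG2 siNC and at 0.287 in LM3 siNC. The largest differences were those of SERPINA1 (9.53), ALB (9.25), AFP (8.89), TF (8.70), SERPINA3 (8.38), A2M (7.90), ORM1 (7.45) and AMBP (7.03), on the log2 scale. Against the low LM3 values of these genes, their size depends on the added 1. MBL2 and ITIH1 were listed at 0 in each LM3 library, and no fold is given for them. This comparison uses the same siNC libraries as the knockdown comparisons. Without LM3 siNC replicates 2 and 3, 44 members were called higher, 43 of them in both comparisons, with PROZ in place of PROS1 (0.98). LM3 then has 1 library, which is assumed to vary like those of HepG2.

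LM3 nevertheless expressed some of the genes. In LM3 siNC, 13 of the 48 listed members had a mean of at least 1, and 4 of these a mean of at least 10. SERPINA1, among the 13, reached 1 only in replicates 2 and 3. C3, the most abundant, was at 76.8, 79.4 and 78.2, and it made up 45.6% ± 0.87 (SD, n = 3) of the members' sum. RBP4 was at 16.5, 21.0 and 22.3, VTN at 14.8, 17.8 and 15.7, and PROS1 at 16.1, 13.4 and 13.8. The plasma protein RNA of LM3 was thus led by complement C3, a retinol carrier, vitronectin and protein S, whereas that of HepG2 was led by antitrypsin, albumin and AFP.

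In LM3, 11 members passed the filter, and 4 of them were called lower and 0 higher after siFASRL by limma. Of all 7483 genes tested, 6.2% were called lower and 1.42% higher. By adjusted p alone 9 members fell and 1, C3, rose, against 43.5% of all tested genes that fell and 33.9% that rose. The median log2 fold change of the 11 was -0.72, beside -0.06 for all tested genes. Under quantile normalization it was -0.42, with 8 members lower and 1 higher by adjusted p. At an unadjusted p under 0.05, 1 member was higher. PROC and AGT passed the filter only through siNC, so they could only be lower. Median-of-ratios scaling moved the median of all tested LM3 genes to 0.045 (by more than 0.1) and the share of higher genes among those past the fold threshold from 18.6% to 31.0%, and quantile normalization moved that share to 37.8%. By adjusted p alone the share was 43.8%, and 53.1% under median-of-ratios scaling. In HepG2, quantile normalization moved the share past the fold threshold from 34.7% to 47.0%.

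LGALS3BP, a secreted glycoprotein that binds galectins, was at 7.71, 9.15 and 9.12 in LM3 siNC and at 1.02, 0.99 and 1.05 in siFASRL. Only 11.8% of the siNC mean was left, and the log2 fold change was -2.25 (SE 0.068, limma adjusted p = 1.95e-07). CFI, the protease that inactivates C3b, was at 4.68, 4.10 and 4.02 in siNC and at 1.48, 1.29 and 1.46 in siFASRL. CFI was called lower at -1.13 (SE 0.065, limma adjusted p = 1.62e-06). VTN was at 6.14, 7.46 and 7.43 in LM3 siFASRL, a log2 fold change of -1.09 (SE 0.088, limma adjusted p = 8.73e-06). F10, clotting factor X, was at 5.33, 4.96 and 5.13 in siNC and at 2.03, 1.90 and 1.90 in siFASRL, a log2 fold change of -1.06 (SE 0.050, limma adjusted p = 7.07e-07). The 4 called genes thus include a complement inhibitor, a clotting factor and others. Under median-of-ratios scaling F10 (-0.97) and VTN (-0.99) missed the fold threshold, and under quantile normalization CFI (-0.76), F10 (-0.72) and VTN (-0.95) did.

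PROS1, AGT, PROC, CFB and C5 fell in LM3 without being called, by 0.92, 0.72, 0.71, 0.61 and 0.32. They kept 49.3%, 36.3%, 30.1%, 61.8% and 74.3% of the siNC mean. AGT and PROC had siNC means of only 1.63 and 1.26, so the added 1 shrank their fold changes. RBP4 did not pass, with 17.6, 17.0 and 16.7 in siFASRL and a log2 fold change of -0.20 (95% interval -0.43 to 0.03, limma adjusted p = 0.0942). C3 was at 95.2, 98.5 and 95.7 in siFASRL, above all siNC values, and rose by 0.30 (SE 0.047, limma adjusted p = 0.000431). Its share of the members' sum in LM3 reached 66.1% ± 0.49 (SD, n = 3). Without LM3 siNC replicates 2 and 3 and siFASRL replicate 1, 4 members were again called lower. These were LGALS3BP (-2.11), CFI (-1.26), F10 (-1.13) and PROS1 (-1.06), while VTN was at -0.90, and C3 again rose, by 0.34 (limma adjusted p = 0.00464). The log2 fold change of RBP4 was then 0.025, against -0.20 with all libraries. That comparison has 1 siNC library, assumed to vary like the siFASRL ones.

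Whether siFASRL acted differently in LM3 and HepG2 was tested with an interaction term (LM3 effect minus HepG2 effect) in a limma model of all 12 libraries. Of the 47 members tested, 39 had a positive and 4 a negative difference by adjusted p, beside 19.5% and 27.2% of all 8285 tested genes. Among all genes that passed, 41.7% were positive, and 52.7% under median-of-ratios scaling. The filter counts libraries of either line, and for most of the 39 the LM3 values were under 1 in both groups, which left little to fall. The largest differences were of this kind, those of HP (2.04), SERPINF2 (1.80), TF (1.62), ITIH3 (1.59) and SERPINA6 (1.56). The lines can be compared for 10 members with a mean of at least 1 over the LM3 libraries. Of these, C5 (1.36), C3 (0.68), RBP4 (0.64) and CFB (0.59) had a positive difference. C5 and CFB thus fell less in LM3, C3 rose there, and RBP4 did not pass there. LGALS3BP (-1.53), VTN (-0.71), CFI (-0.40) and F10 (-0.21) had a negative difference, and PROS1 (limma interaction adjusted p = 0.376) and AGT (limma interaction adjusted p = 0.146) did not pass. C5 and LGALS3BP were called. Under quantile normalization LGALS3BP (-0.94) was no longer called, and the differences of CFI (0.22) and F10 (0.20) turned positive. Without the 3 LM3 libraries set apart above, these 8 differences had the same sign, and the limma adjusted p was at most 0.0307 (F10).

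The next question was whether acute phase genes rose with IL6. IL6 was at 1.17, 1.2 and 1.22 in HepG2 siNC and at 41.0, 41.4 and 38.2 in siFASRL. In LM3 it was at 2.30, 2.07 and 2.24 in siNC and at 28.2, 27.3 and 27.2 in siFASRL. IL6 RNA thus rose in both lines, by 4.23 (SE 0.056, limma adjusted p = 2.12e-10) and by 3.16 (SE 0.051, limma adjusted p = 1.68e-08). Of the 31 genes in a list of the IL6 pathway, 21 were listed and tested in HepG2, where 19 rose and 1, IL11RA, fell by adjusted p, beside 44.8% of all tested genes that rose. IL11RA passed the filter only through siNC and CTF1 only through siFASRL, so each could move only 1 way. In LM3, 14 of 19 tested rose, 1 fell by adjusted p and 4 did not pass. Of all genes tested in LM3, 33.9% rose and 43.5% fell. IL11, a cytokine of the same family, rose from a mean of 5.27 to 28.0 in HepG2 and from 1.97 to 9.99 in LM3. SOCS3, a feedback inhibitor that STAT3 induces, was at 29.8, 32.4 and 30.1 in HepG2 siNC and at 68.96, 78.16 and 74.79 in siFASRL. In LM3 SOCS3 was at 3.19, 2.81 and 3.27 in siNC and at 3.81, 3.79 and 3.79 in siFASRL. It rose by 1.24 (limma adjusted p = 2.17e-07) in HepG2 and by 0.23 (limma adjusted p = 0.00545) in LM3. CEBPB and CEBPD, which act on acute phase promoters, rose by 1.11 and 1.27 in HepG2 and by 0.84 and 1.002 in LM3. STAT3 and the receptor gene IL6R rose by 0.65 and 0.46 in HepG2, and in LM3 STAT3 rose by 0.40 while IL6R was at -0.06 (limma adjusted p = 0.471). The transducer gene IL6ST and the kinase gene JAK2 are not analysed here.

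**Figure D4:**
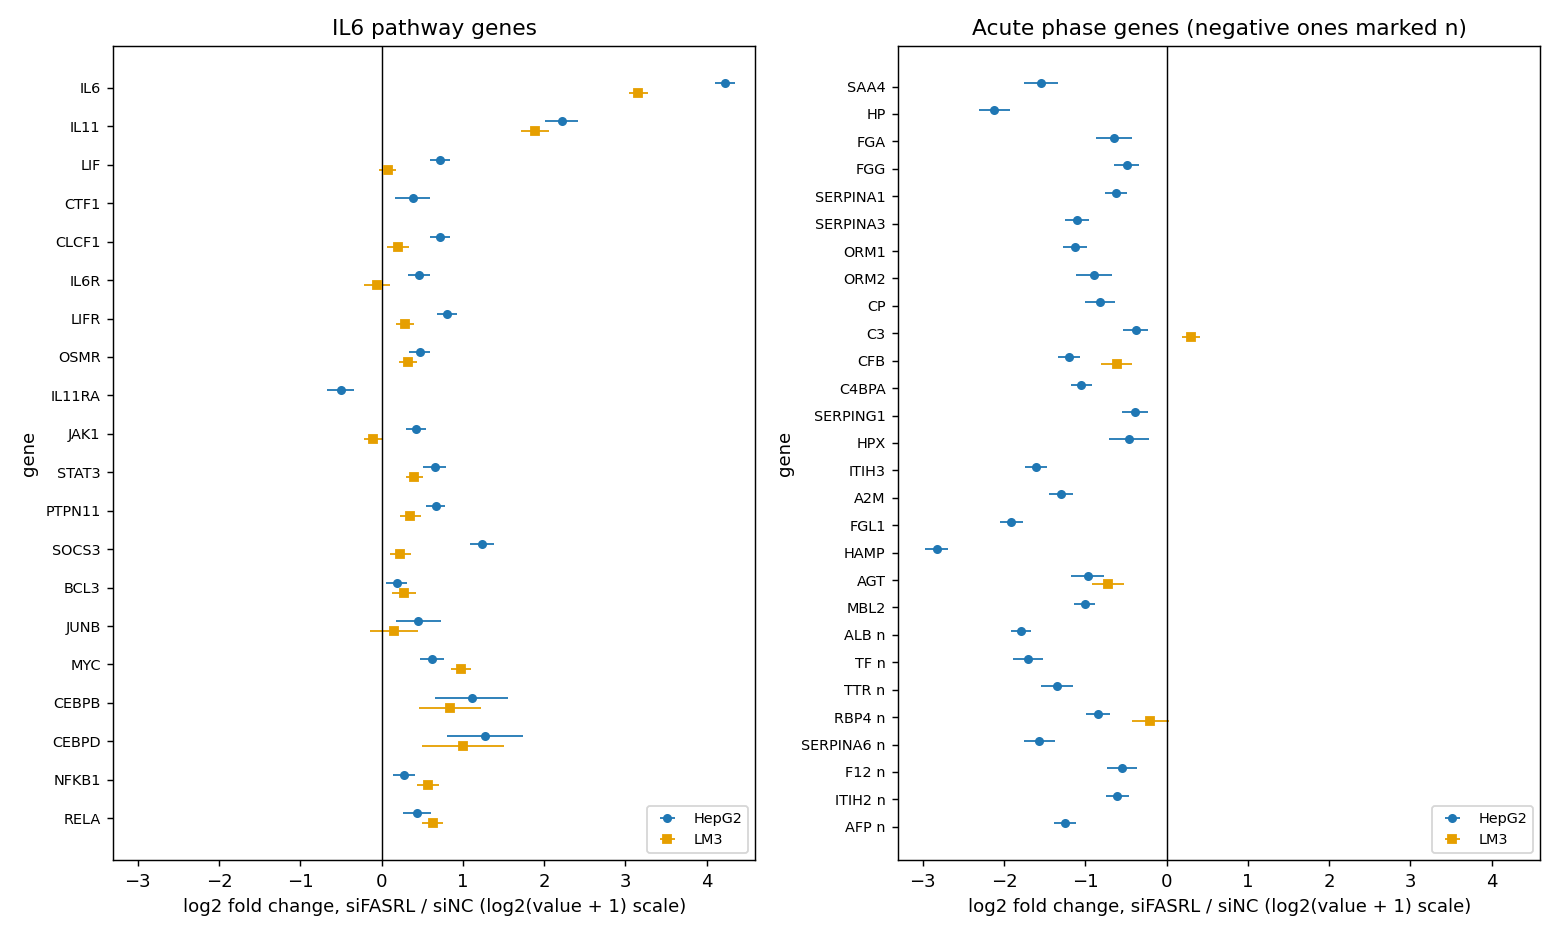
Log2 fold change of siFASRL against siNC with its 95% interval from limma, in HepG2 (circles) and LM3 (squares), on the log2(value + 1) scale. Most listed genes of the IL6 pathway are on the left and acute phase genes on the right. IL6 lies at 4.23 and 3.16, whereas all acute phase genes tested in HepG2 lie under 0.

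In HepG2 the positive acute phase genes did not rise with IL6. Of 27 such genes, 20 were listed and tested, all 20 fell by adjusted p and 11 were called lower, with a median log2 fold change of -1.03. Of these 20, 17 are members whose fall is given above, and 3 (HAMP, FGL1 and SAA4) are not. MBL2, among the 11, could only be lower. Of all tested genes, 44.3% fell and 6.79% were called lower. Of 11 negative acute phase genes, 8 were listed, all 8 fell and 5 were called lower, with a median of -1.30, and all 8 are members. The listed genes of both acute phase lists thus fell, while SOCS3 rose. CRP, SAA1, SAA2 and LBP, positive acute phase genes, are not analysed here. HAMP, the gene of the iron hormone hepcidin, was at 271, 279 and 271 in siNC and at 40.6, 36.5 and 36.1 in siFASRL. Its log2 fold change of -2.83 (SE 0.062, limma adjusted p = 3.24e-09) was the largest in size on both lists. FGL1, a fibrinogen-related protein, and SAA4 were called lower at -1.91 and -1.55. SAA4 was counted among the 20 and the 11, although it is a constitutive serum amyloid A and not an induced one. Under quantile normalization 19 of the 20 positive genes fell. In LM3, 3 positive genes were tested, of which C3 rose while CFB and AGT fell, and the 1 negative gene tested, RBP4, did not pass.

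Most liver transcription factors tested fell in HepG2. Of 20 such factors, 15 were tested in HepG2, where 14 fell and 1, CEBPB, rose by adjusted p, beside 44.3% of all tested genes that fell. ONECUT1, among the 14, passed the filter only through siNC and could only be lower. HNF4A, which acts on many hepatocyte genes, was at 26.8, 27.8 and 23.8 in HepG2 siNC and at 12.6, 11.3 and 12.5 in siFASRL. It was called lower in HepG2 (-1.05) and fell in LM3 (-0.998) from a mean of 14.3 to one of 6.71. CEBPA fell by 1.12 in HepG2 and 0.90 in LM3. NR1H4, the bile acid receptor, was at 12.6, 10.5 and 9.87 in HepG2 siNC and at 1.34, 1.22 and 1.26 in siFASRL, a log2 fold change of -2.39 (SE 0.083, limma adjusted p = 2.85e-08). NR0B2, a repressor that NR1H4 induces, and CREB3L3, a factor that acts on acute phase genes and HAMP, were called lower at -1.51 and -1.77. In LM3, CREB3L3 fell by 2.56, and 5 of the 7 factors tested fell, beside 43.5% of all tested genes. The part of these factors in the fall of the plasma protein genes was not tested.

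Of 30 genes that modify plasma proteins or carry them out of the cell, 21 were tested in each line. In HepG2, 18 fell and 1, SRP72, rose, with a median of -0.49, and 1 was called lower. In LM3, 18 fell and 1, SRP72, rose, with a median of -0.53, and 2 were called lower. Of all tested genes, 44.3% fell and 6.79% were called lower in HepG2, and 43.5% fell and 6.2% were called lower in LM3. PDIA6 and PDIA4, protein disulfide isomerases, fell by 1.17 and 0.98 in HepG2 and by 0.73 and 1.28 in LM3. SEC24D, a coat protein of vesicles that leave the endoplasmic reticulum, fell by 0.49 in HepG2 and by 1.06 in LM3. Most of these genes thus fell in both lines, and few of them reached the fold threshold. Under median-of-ratios scaling, 17 fell and 2 rose in LM3.

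Markers of other liver cell types moved in HepG2 too. Of the 7 hepatocyte markers, 4 are members, and the 3 others, APOA1 (-1.90), APOH (-1.89) and APOB, fell too, beside 44.3% of all tested genes. Of 5 cholangiocyte markers, KRT7 (1.17) and KRT19 (1.10) rose and SPP1 (-1.98), EPCAM and SOX9 fell. Their sum was 905, 906 and 844 in HepG2 siNC and 1129, 1184 and 1148 in siFASRL, with KRT7 the most abundant in siFASRL. In LM3 KRT7 rose by 0.84 and EPCAM fell by 0.39, and KRT19 and SOX9 were too low to be tested. The LM3 sum was 188, 214 and 217 in siNC and 358, 368 and 359 in siFASRL, nearly all of it KRT7. Of the 6 listed stellate cell and fibroblast markers, COL3A1 (-1.52) and LUM (-1.44) were called lower in HepG2, where ACTA2 rose (0.65), and COL1A1 (-1.45) was called lower in LM3. Their sum was 81.2, 82.9 and 81.9 in HepG2 siNC and 54.2, 48.2 and 50.9 in siFASRL, and in LM3 15.7, 14.6 and 13.6 in siNC and 5.06, 6 and 5.28 in siFASRL. The macrophage marker CD68 did not pass in HepG2 and rose in LM3 (0.23, limma adjusted p = 0.0255), and the endothelial marker VWF was too low to be tested. The part of these markers in the fall of the plasma protein genes was not tested.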

How the data were processed

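RNA-seq values of HepG2 and LM3 cells were taken per library from the deposited tables, and groups and replicate numbers from the sample labels. Per the study's methods, reads were filtered with SOAPnuke, mapped with HISAT2, aligned to a coding gene set with Bowtie2 and quantified with RSEM. The deposited values are normalized RSEM expression values, and the authors do not state whether these are FPKM or TPM. The processing notes name the build hg19, whereas the chromosome accessions in the tables are those of GRCh38, so positions come from GENCODE v29 or RefSeq on GRCh38. The 6 columns in 1 table that repeat the LM3 values were identical to them and were not used again, and the symbols of 17 genes stored as dates were restored.

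The test was limma (3.58.1, R 4.3.3) on log2(value + 1), fitted on the libraries of each comparison, for genes that reached 1 in at least 3 of them. Adjustment was by Benjamini-Hochberg over all tested genes. The design had named limma for values that are not counts. The interaction was fitted on all 12 libraries. The step was tested on simulated data. Labels give separate samples, and nothing says that they are separate cultures, so p-values may measure only technical spread between replicates. The members and the gene lists were chosen with earlier results of these data known. Values in each library are given for ALB, AFP, TF, TTR, HP, FGA, FGG, F2, SERPINA1, SERPINA3, ORM1, ORM2, C3 and IL6, and for the members with the largest changes among those called (up to 8 in each line and at baseline, 6 in the interaction). Genes of other lists are named where called in either line, and others were chosen after their values were seen. Some genes and a motif of these lists are not reported here. Alternatives were the pseudocount, the filter, the scaling, the replicate block, a joint model, the threshold and leaving out each library. Depth per library is unknown. Transcripts were aligned with Biopython (1.88), and plots were drawn with matplotlib (3.10.9) from tables read with pandas (2.3.3) in Python (3.11.15).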

Additional observations from a re-analysis of the deposited data

Results flagged for a closer look

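The effect of siFASRL differed between the lines (LM3 effect minus HepG2 effect, limma interaction adjusted p under 0.05) for many genes, of which 17 are given here. They are the members with a mean of at least 1 over the LM3 libraries, the 6 members with the largest called differences, and genes expressed in both lines chosen from IL6, IL11, SOCS3, CEBPD, CREB3L3, HNF4A and CEBPA after their values were seen, where the adjusted p was under 0.05. Among the members expressed in both lines, the difference on the log2 scale was 1.36 for C5, 0.68 for C3, 0.64 for RBP4, 0.59 for CFB, -0.21 for F10, -0.40 for CFI, -0.71 for VTN and -1.53 for LGALS3BP. Under quantile normalization F10 (0.20) and CFI (0.22) turned positive and LGALS3BP (-0.94) was no longer called. C3 fell in HepG2 and rose in LM3. For HP (2.04), SERPINF2 (1.80), TF (1.62), ITIH3 (1.59) and SERPINA6 (1.56) the LM3 values were under 0.5 in every library, so the difference mostly restates the HepG2 change. The same holds for genes left out here, such as HAMP (2.80). Outside the members, the difference was -1.07 for IL6, -0.33 for IL11, -1.005 for SOCS3 and -0.78 for CREB3L3. That of IL11 did not pass with a pseudocount of 0.1 (-0.11, limma adjusted p = 0.6) or with median-of-ratios scaling (-0.27, limma adjusted p = 0.0974), and did with quantile normalization (-0.55, limma adjusted p = 0.00375). Under quantile normalization the difference was -1.63 for IL6, -0.65 for SOCS3 and -0.46 for CREB3L3 (limma adjusted p = 0.0466 for CREB3L3). Under median-of-ratios scaling IL6 (-0.99) and SOCS3 (-0.95) missed the fold threshold, as did SOCS3 with a pseudocount of 0.1 (-0.97). No explanation was tested.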

How the results depend on the processing

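Settings were varied for 47 combinations of gene and comparison, not for every gene named in the text. Of their 713 values under alternative settings, 699 kept their direction and their side of the threshold. With 1 library left out, 371 of 372 did, and the exception among these genes was F2 in HepG2. Members outside this set also crossed the threshold, as the following counts of all members show. With 1 library left out, the number of members called lower was 19 to 22 in HepG2, 4 in LM3 and 0 at baseline, and the number called higher 0 in HepG2, 0 in LM3 and 43 to 45 at baseline. In the interaction it was 14 to 16 positive and 1 negative, against 15 positive and 1 negative of 47 members with all libraries. Of all 8285 genes tested there, 191 were called positive and 210 negative. Genes passed the filter on all libraries of the comparison here.

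Without the fold threshold, 47 members were lower in HepG2, 9 lower and 1 higher in LM3, and 39 positive and 4 negative in the interaction, by construction. In LM3, 7 were called lower with a pseudocount of 0.1, 2 with a filter at 5, 2 with median-of-ratios scaling and 1 with quantile normalization, against 4. The filter at 5 tests fewer genes, and a smaller pseudocount shrinks the fold changes of weakly expressed genes less. For the scalings the cause was not tested. With quantile normalization the negative interaction of LGALS3BP was no longer called (0 members), and the interactions of CFI (0.22), F10 (0.20) and PROS1 (0.17) turned positive. With a pseudocount of 0.1 that of AGT turned negative (-0.33), and AGT kept 36.3% of its siNC mean in LM3 and 50.4% in HepG2. The cause was not tested.

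With the replicate block, 20 members were called lower in HepG2, 4 in LM3 and 44 higher at baseline, the same numbers. Same-numbered libraries deviated together with r of 0.319, 0.371 and -0.20 in HepG2, -0.08, 0.118 and -0.175 in LM3 and 0.456, 0.539 and -0.291 at baseline, and the labels name no pairing. Without read counts, no counting error can be given for values near 0.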
